A study of Mus musculus with 4 samples.

Results

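Oxidative phosphorylation genes encode the subunits of respiratory complexes I, III and IV and of the ATP synthase (complex V). They were chosen by symbol: names beginning with Ndufa, Ndufb, Ndufc, Ndufs or Ndufv and a digit, Uqcr, Cox4 to Cox8, Atp5, or the mitochondrial prefix mt- followed by Nd, Co, Cytb or Atp. The rule found 93 of the 32285 genes measured. Of these, 80 are encoded in the nucleus (37 of complex I, 8 of complex III, 18 of complex IV and 17 of complex V) and 13 in mitochondrial DNA (7 of complex I, 1 of complex III, 3 of complex IV and 2 of complex V). The rule used symbols alone, though it was set with earlier results of these data known.

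The study measured RNA in single nuclei of mouse cortex by droplet 3′ sequencing. C57BL/6 mice of 5 months were either wildtype (libraries R1 and R2) or Setdb1-CK-cKO, a conditional knockout of Setdb1 (libraries R1 and R2). Each library came from another animal, so n = 2 per genotype. The Setdb1 protein puts methyl groups on lysine 9 of histone H3, and the series asks about its part in neuroinflammation and in anxiety- and depression-like behaviour. The labels do not spell out CK, the cells in which the deletion was made or the exons removed. No treatment is listed for any group.

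Complexes I, III and IV pass electrons from NADH and ubiquinol to oxygen and pump protons across the inner mitochondrial membrane, and complex V uses the proton gradient to make ATP. Most subunits are made in the cytosol from nuclear genes and imported. A small set of hydrophobic core subunits is transcribed inside the mitochondrion from long transcripts of both strands, which are cut into separate RNAs. Neurons draw most of their ATP from this pathway. Purified nuclei should hold newly made transcripts of the nuclear members, whereas mitochondrial transcripts enter a nuclei library through mitochondria that stay attached or through free RNA.

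The nuclear members are spread over 19 chromosomes and are short, with a median genomic span of 7151.5 bases against 17425 bases for all 21938 nuclear protein-coding genes of the annotation (GENCODE vM21, GRCm38). Their promoters carry motifs long linked to genes of mitochondrial function. Windows of 300 bases, 250 before and 50 after the start, were available for 64 nuclear members (RefSeq, GRCm38.p6) and were searched on both strands. The letters GCGC, then any base, then TGCGC, of the type bound by NRF1, occurred in 15 of the 64 (23.4%), against 5.19% of 27025 genes with such a window. CCGGAAG, of the type bound by ETS factors, occurred in 15 members (23.4%) against 9.93%, and AAGATGGCG, of the type bound by YY1, in 7 (10.9%) against 1.64%. TATAAA occurred in 8 members (12.5%) against 15.7%. The cytosolic ribosomal protein genes, another set of short and widely used genes, held the ETS-type letters in 40% and the NRF1-type letters in 9.23% of 65 genes. These are matches of letters, not measured binding.

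The stretches from 150 bases before to 20 after the start are shown for 4 nuclear members that were higher in excitatory neurons of the knockout libraries, and for Ndufs6, the member with the smallest p-value in oligodendrocytes. Capitals mark the matches. Atp5k (chr5:108434380-108434549, minus strand) holds an NRF1-type match and, just after its start, the ETS-type letters in reverse. Atp5md (chr19:47090628-47090797, minus strand) and Cox8a (chr19:7217597-7217766, minus strand) hold the ETS-type letters in reverse at their start, and Atp5md also holds TATAAA in reverse. Ndufa3 (chr7:3617223-3617392, plus strand) holds none of the 4 motifs in this stretch, and Ndufs6 (chr13:73328463-73328632, minus strand) holds an NRF1-type match.
Atp5k: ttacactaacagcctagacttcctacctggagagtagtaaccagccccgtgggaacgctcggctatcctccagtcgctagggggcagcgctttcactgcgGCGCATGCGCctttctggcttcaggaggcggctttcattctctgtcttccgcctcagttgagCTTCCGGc
Atp5md: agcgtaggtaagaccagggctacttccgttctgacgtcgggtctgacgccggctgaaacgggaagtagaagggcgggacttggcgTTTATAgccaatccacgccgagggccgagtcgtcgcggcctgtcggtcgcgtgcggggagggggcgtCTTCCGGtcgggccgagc
Cox8a: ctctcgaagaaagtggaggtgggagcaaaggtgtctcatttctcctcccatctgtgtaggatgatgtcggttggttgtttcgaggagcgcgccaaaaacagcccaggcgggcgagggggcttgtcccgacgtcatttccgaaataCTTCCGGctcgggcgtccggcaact
Ndufa3: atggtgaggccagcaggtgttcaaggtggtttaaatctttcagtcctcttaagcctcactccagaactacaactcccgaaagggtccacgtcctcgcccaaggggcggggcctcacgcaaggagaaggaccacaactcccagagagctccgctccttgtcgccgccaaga
Ndufs6: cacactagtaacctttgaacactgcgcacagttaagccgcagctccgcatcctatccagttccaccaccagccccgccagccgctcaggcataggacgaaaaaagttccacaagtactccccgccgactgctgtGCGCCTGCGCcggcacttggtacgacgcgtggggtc

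The mitochondrial members have a median span of 784 bases and abut or overlap. The end of mt-Atp8 and the start of mt-Atp6, both subunits of the membrane part of complex V, share 43 bases (chrM:7927-7969, GRCm38), shown here because reads from this stretch cannot be given to one gene alone. Capitals mark the start codon of mt-Atp6.
mt-Atp8 and mt-Atp6: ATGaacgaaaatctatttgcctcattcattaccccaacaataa
mt-Nd4l and mt-Nd4 also overlap, and mt-Nd6 lies on the strand opposite to mt-Nd5. Of the nuclear members, 12 overlap another gene on their own strand and 29 on the other strand, among them Ndufa3 with Tfpt, Cox6a2 with Itgad and Cox6c with Vps13b. Whether the counting used strand is not given in the sources used here, so reads of such pairs may not be separable.

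The 4 libraries held 11790 to 14493 barcodes and 38314394 to 45605971 unique molecular identifiers (UMIs, each standing for 1 captured RNA molecule), with 48 to 64 barcodes shared between any pair of libraries. After filtering, 51846 nuclei remained and 47867 fell in classes named from marker genes, such as excitatory neuron-like. The suffix is dropped from here on. Setdb1 itself was not lower in the libraries labelled knockout: its levels in excitatory neurons were 72.8 and 67.4 CPM (UMIs of a gene scaled to a fixed total per library) in the wildtype libraries and 71.1 and 67.1 CPM in the knockout libraries. Tags at the 3′ end test a deletion only if it lies there or lowers the RNA. Xist, Uty and Ddx3y in both knockout libraries went against the sex listed for the animal, so that by these genes R1 of either genotype came from a male and R2 from a female. "Knockout" below therefore means the libraries labelled so. Throughout, values of the 4 libraries are given in the order wildtype R1, wildtype R2, knockout R1, knockout R2.

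Summed over the nuclear members, the share of UMIs was higher in both knockout libraries than in both wildtype libraries in 9 of the 10 classes tested. In excitatory neurons (27027 nuclei) the nuclear members made up 0.339%, 0.407%, 0.456% and 0.503% of UMIs. The means were 0.373% ± 0.0478 in wildtype and 0.480% ± 0.0332 in knockout (SD, n = 2 each), a ratio of 1.29. The groups did not overlap, but wildtype R2 lay closer to knockout R1 than to wildtype R1. The order wildtype R1, wildtype R2, knockout R1, knockout R2, from lowest to highest, returned in 7 of the 10 classes, and the knockout-to-wildtype ratios lay between 1.21 and 1.35. Endothelial cells, the smallest class, were the exception, with 0.689%, 0.895%, 1.02% and 0.889%. Classes share the library they come from, so they are not separate tests of the genotypes.

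The mitochondrial members followed another order. In excitatory neurons they made up 0.103%, 0.174%, 0.240% and 0.184% of UMIs, with means of 0.139% ± 0.0507 and 0.212% ± 0.0398 (SD, n = 2 each) and a ratio of 1.53. Here knockout R1 was highest and wildtype R1 lowest, and wildtype R2 and knockout R2 lay close together. Knockout R1 was highest in 7 of 10 classes and wildtype R1 lowest in 7. Both knockout libraries were above both wildtype libraries in 7 of 10 classes, with ratios from 0.839 in committed oligodendrocyte precursors to 1.91 in astrocytes. The mitochondrial UMIs per nuclear-member UMI in excitatory neurons were 0.303, 0.429, 0.525 and 0.365, so that the groups overlapped in this ratio. They overlapped in 7 of the 10 classes. In excitatory neurons the counting error of the nuclear share was small beside the differences between libraries, with a 95% Wilson interval of 0.337% to 0.341% in wildtype R1. In endothelial cells of the same library the interval was 0.637% to 0.745%. That was not small beside the gap between wildtype R2 and knockout R2 in endothelial cells. Intervals cover counting error only.

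**Figure D1:**
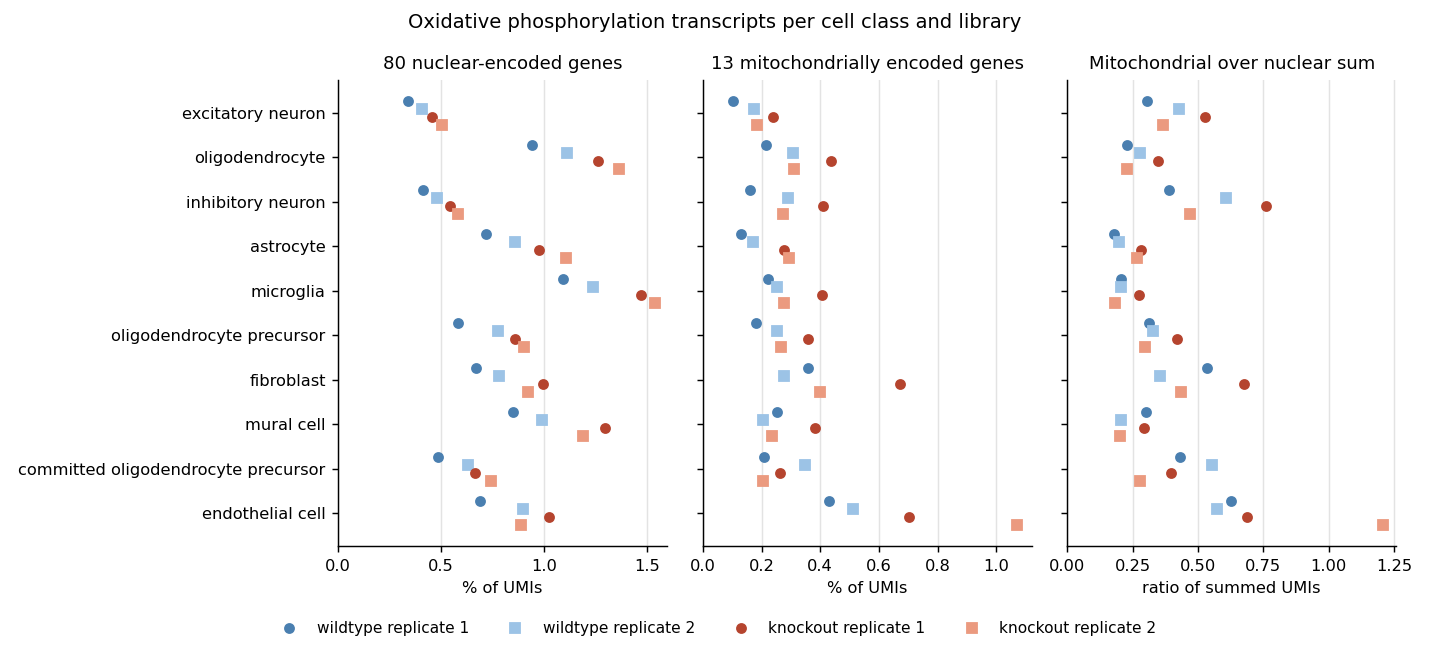
Share of UMIs from nuclear members (left, percent), from mitochondrial members (middle, percent) and mitochondrial UMIs per nuclear-member UMI (right) in each class, 1 point per library. In excitatory neurons the nuclear shares run from 0.339% to 0.503% with both knockout libraries on top, whereas the ratios of the genotypes overlap.

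The nuclear members moved between classes and libraries much as the ribosomal protein genes did, and the mitochondrial members less so. Across the 10 classes within a library, Pearson's r between the nuclear and the ribosomal share was 0.940 to 0.996, and between the nuclear and the mitochondrial share −0.003 to 0.328. By rank (Spearman), the nuclear and mitochondrial shares correlated at 0.515, 0.030, 0.515 and 0.406 in the 4 libraries. These are descriptions over 10 classes that share a library and its depth. The ribosomal protein genes made up 0.360%, 0.424%, 0.516% and 0.584% of UMIs in excitatory neurons, the same order as the nuclear members. Bc1, a noncoding RNA of neuronal cytoplasm, followed the same order at 379, 630, 738 and 1190 CPM of all UMIs. In microglia, which should lack Bc1, it stood at 912, 1409, 1487 and 2165 CPM of all UMIs. The part of free cytoplasmic RNA in the shares of the nuclear members was not tested.

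In excitatory neurons, 6 nuclear members rose in the knockout libraries and none fell (edgeR quasi-likelihood test, Benjamini-Hochberg adjusted p under 0.05), of 77 that passed the filter on low counts. Of all 19123 genes tested there, 2.97% were higher and 1.31% lower, so that 568 genes rose and 251 fell. Of the 77 nuclear members, 74 had a positive log2 fold change and 62 had both knockout libraries above both wildtype libraries, against 50.4% and 26.5% of all genes. The median over the 77 was 0.40, with a range of −0.17 to 1.34, against 0.00 for all genes tested. The 3 nuclear members that did not pass had few UMIs, among them Cox8b and Cox8c, isoforms of muscle or testis, with 18 and 0 UMIs in all 4 libraries together.

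Complex I, which takes electrons from NADH, had 1 of 36 tested nuclear members higher in the knockout libraries, with a median log2 fold change of 0.40. The complex was assigned by symbol, so Ndufa4, which is now placed in complex IV, is counted here. Ndufa3, an accessory subunit of its membrane arm, had 26.2, 29.2, 37.4 and 38.9 CPM. Both knockout libraries were above both wildtype libraries, with a log2 fold change of 0.46 (SE 0.106) and an adjusted p of 0.0499 in edgeR's quasi-likelihood test, just inside the threshold. Ndufc1, another membrane-arm subunit, lay just outside it with 32.3, 38.3, 46.8 and 56.7 CPM, a log2 fold change of 0.55 and an adjusted p of 0.0522 (edgeR). The core subunits that carry the electrons varied. Ndufs1, the largest iron-sulfur subunit, had 58.7, 57.3, 54.0 and 51.6 CPM, with both knockout libraries below both wildtype libraries and a log2 fold change of −0.14 that did not pass. Among other core subunits, Ndufv2, Ndufs3 and Ndufv1 had log2 fold changes of 0.01, 0.09 and 0.20, and Ndufs8 and Ndufs7 0.43 and 0.45. None of these passed. These core subunits were singled out after their values were seen.

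Complex III, which oxidises ubiquinol and reduces cytochrome c, had none of its 8 nuclear members called by edgeR, with 4 at an unadjusted p under 0.05 and a median log2 fold change of 0.34. Uqcrb, a small subunit close to the ubiquinone site, came nearest with 29.2, 35.4, 47.0 and 44.2 CPM and a log2 fold change of 0.50 (adjusted p 0.0541, edgeR). Its groups did not overlap. Of the core proteins, Uqcrc1 had a log2 fold change of 0.03, and Uqcrc2 had 42.6, 43.3, 40.6 and 35.8 CPM with a log2 fold change of −0.17 that did not pass.

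Complex IV, which reduces oxygen, had 3 of 16 nuclear members higher, with a median log2 fold change of 0.43. Cox6a2, the heart and muscle isoform of a regulatory subunit, had 3.21, 4.69, 8.02 and 11.96 CPM in excitatory neurons. Knockout R2 was highest and the groups did not overlap, with a log2 fold change of 1.34 (SE 0.238, adjusted p 0.0187, edgeR), the largest among the nuclear members. Cox8a, the common isoform of the smallest subunit, had 124, 133, 164 and 166 CPM. The libraries of each genotype lay close together, and the log2 fold change was 0.36 (SE 0.0749, adjusted p 0.0358, edgeR). Cox6c, a small membrane subunit, had 74.6, 90.9, 110 and 120 CPM with a log2 fold change of 0.48 (SE 0.106, adjusted p 0.0435, edgeR). Cox4i1, the most used isoform of a regulatory subunit, had a change of like size, 0.47, with wider spread (148, 186, 209 and 253 CPM), and did not pass (adjusted p 0.0797, edgeR).

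Complex V, the ATP synthase, had 2 of 17 nuclear members higher, with a median log2 fold change of 0.37. Both sit in the membrane part, where they help the enzyme form dimers. Atp5md had 62.3, 69.1, 86.9 and 90.9 CPM, with groups apart and a log2 fold change of 0.44 (SE 0.0850, adjusted p 0.0278, edgeR). Atp5k had 77.3, 86.0, 106 and 115 CPM, with groups apart as well and a log2 fold change of 0.44 (SE 0.0877, adjusted p 0.0309, edgeR). The catalytic beta subunit Atp5b had a log2 fold change of 0.07.

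None of the 13 mitochondrial members passed the test in excitatory neurons in edgeR, with 8 at an unadjusted p under 0.05, as had 3978 of all 19123 genes tested, and none called by DESeq2. Their log2 fold changes were all above 0, from 0.44 to 0.67, and their median of 0.57 was higher than that of the nuclear members. The libraries of 1 genotype lay farther apart than for the nuclear members. In all 13, knockout R1 was highest and wildtype R1 lowest. Both knockout libraries were above both wildtype libraries in 6 of the 13 and the groups overlapped in 7.

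Among the mitochondrial members of complex IV, mt-Co3 had 246, 433, 582 and 497 CPM, a log2 fold change of 0.67 (SE 0.215) and an adjusted p of 0.126 (edgeR). mt-Co2, which takes electrons from cytochrome c, had 115, 186, 263 and 195 CPM with a log2 fold change of 0.60 (SE 0.211). For mt-Co1, the catalytic core, the values were 159, 232, 308 and 230 CPM, with wildtype R2 above knockout R2 and a log2 fold change of 0.46 (SE 0.181). mt-Cytb, the only mitochondrial member of complex III, had 100.2, 169, 235 and 181 CPM and a log2 fold change of 0.63 (SE 0.216), without overlap. In complex V, mt-Atp6 had 156, 270, 361 and 278 CPM and a log2 fold change of 0.58 (SE 0.224), whereas mt-Atp8 overlapped at 6.72, 12.5, 16.6 and 9.91 CPM with a log2 fold change of 0.47 (SE 0.302). The 43 shared bases shown above belong to both.

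The 7 mitochondrial members of complex I, the proton-pumping membrane core, had log2 fold changes between 0.44 and 0.62 and adjusted p-values between 0.178 and 0.390 (edgeR). mt-Nd4 had 72.7, 119, 164 and 120.4 CPM, mt-Nd2 78.2, 133, 165 and 133 CPM, and mt-Nd1 70.2, 129.6, 173 and 125 CPM. In these 3, wildtype R2 and knockout R2 were about equal. mt-Nd5 had 16.1, 30.2, 41.0 and 30.1 CPM, mt-Nd3 10.5, 17.7, 23.1 and 15.9 CPM, and mt-Nd4l 11.9, 16.2, 24.7 and 13.3 CPM. mt-Nd6, alone on its strand, had 1.43, 3.07, 3.60 and 3.12 CPM and a log2 fold change of 0.58 (SE 0.318), a size like that of the members read from the other strand.

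**Figure D2:**
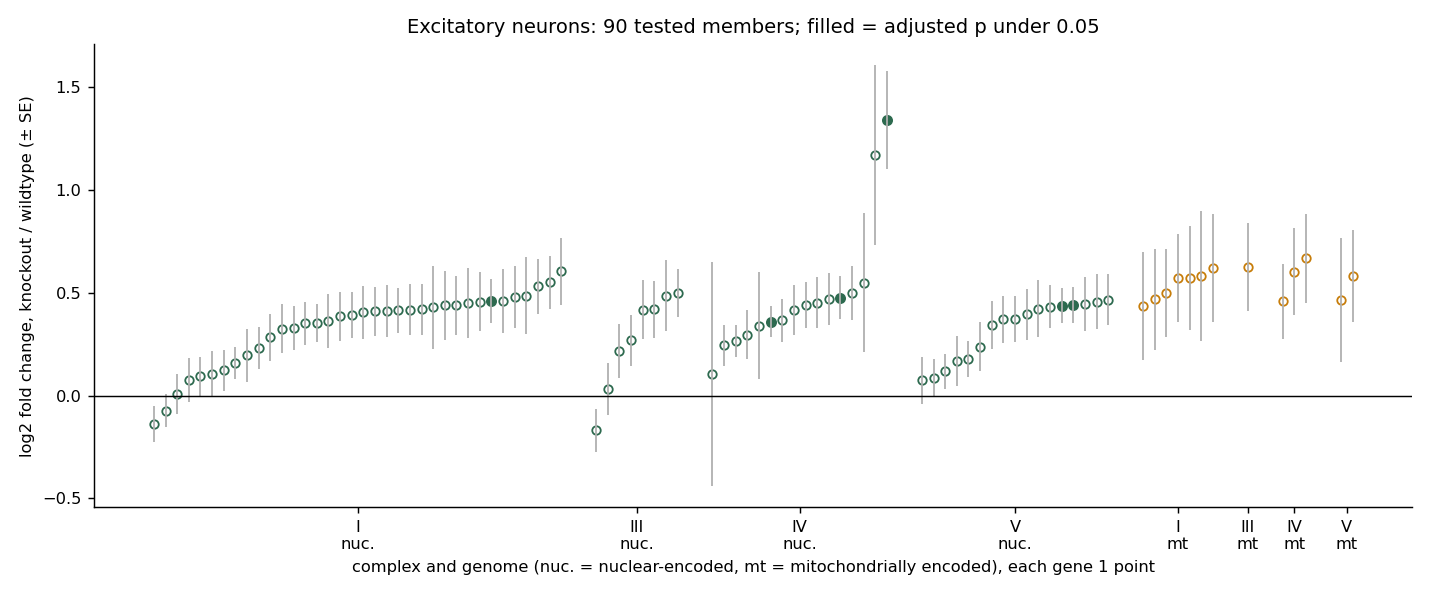
Log2 fold change of knockout against wildtype in excitatory neurons for the 90 tested members (points, with SE bars), grouped by complex and by the genome that encodes them. Filled points have an adjusted p under 0.05 (edgeR). The 6 filled points are nuclear members, and the 13 mitochondrial members lie between 0.44 and 0.67.

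These counts moved with single libraries. Without knockout R1, 48 nuclear members and 1 mitochondrial member were called in excitatory neurons, without wildtype R2 24 and 11, without knockout R2 6 and 12, and without wildtype R1 1 and none. All genes called numbered 2588, 663, 963 and 424 under the same settings, against 819 with all libraries. DESeq2 called 18 nuclear members, and edgeR without a filter on low counts called none, with no count over all genes given for either. With the replicate number added to the fit as a block, more members and more of all genes were called, as counted in the closing section. Nothing states that the replicate numbers pair animals, and by Xist, Uty and Ddx3y they follow sex.

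The nuclear members were set beside other genes of the same genomic span, since short genes had higher values than long ones in general. Among protein-coding genes outside the members, the median log2 fold change in excitatory neurons was 0.18 for spans up to 5 kb, 0.06 for 5 to 10 kb, 0.00 for 10 to 20 kb and −0.04 for 20 to 50 kb, and −0.09 above 100 kb. The nuclear members had medians of 0.44 (26 genes), 0.39 (29 genes), 0.35 (13 genes) and 0.11 (7 genes) in the first 4 of these ranges. They were thus above the other genes in each of the 4, and both sets had smaller medians in the longer ranges. Of the 1475 other genes up to 5 kb, 72.0% had a positive log2 fold change. The part of gene length in the members' values was not tested further.

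**Figure D3:**
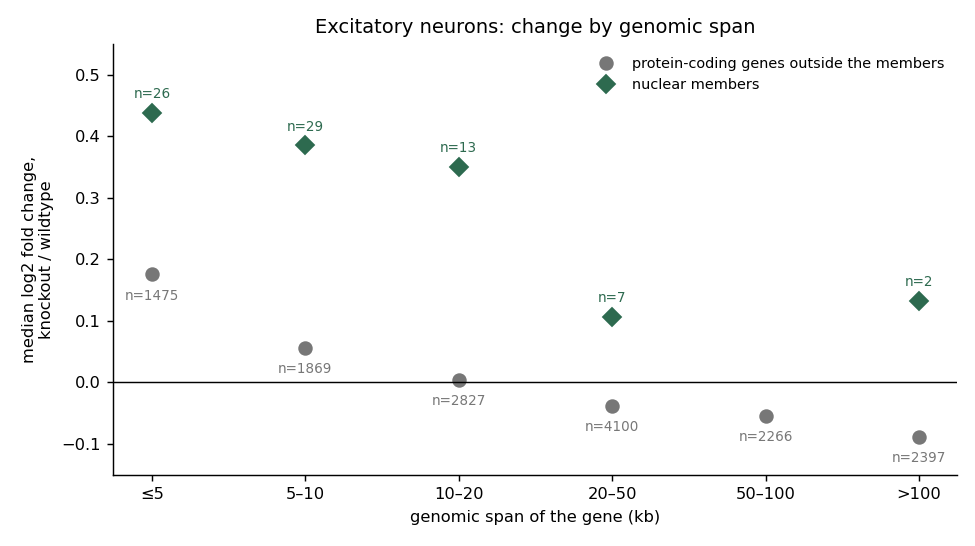
Median log2 fold change of knockout against wildtype in excitatory neurons by genomic span (kb), for nuclear members and for other protein-coding genes. Medians of other genes fall from 0.18 to −0.09, and nuclear members lie above them in the 4 ranges up to 50 kb.

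Other genes of mitochondrial energy metabolism, from lists by function, had medians nearer to 0 in excitatory neurons, and none of them was called higher. Of the 18 tested genes of the tricarboxylic acid cycle, which supplies the NADH, none was called by edgeR and none had an unadjusted p under 0.05, with a median log2 fold change of −0.08. Complex II, wholly nuclear and also part of that cycle, had none of 4 called (1 at an unadjusted p under 0.05, median −0.04). None was called among 14 genes of electron carriers and their synthesis (3 at an unadjusted p under 0.05, median 0.05), 16 assembly factors of complex I (2, 0.04), 32 assembly factors of complexes III to V (8, 0.07), 16 genes that maintain or transcribe mitochondrial DNA (2, −0.04), 10 mitochondrial carriers (3, 0.15) and 20 genes of glycolysis (4, 0.09). The 3 subunits outside the naming rule that were followed, Ndufab1, Ndufb1-ps and Cyc1, had a median of 0.23, with none called and 1 at an unadjusted p under 0.05.

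Of the lists followed, the cytosolic ribosomal protein genes had the median closest to that of the nuclear members. Of 82 tested cytosolic ribosomal protein genes, 32 rose and none fell in edgeR, where 2.97% of all genes rose. Their median log2 fold change was 0.47. Rpl21 had 64.4, 70.2, 92.9 and 104 CPM, with groups apart and a log2 fold change of 0.55 (SE 0.0898, adjusted p 0.0132, edgeR). Of 78 mitochondrial ribosomal protein genes none was called, 26 had an unadjusted p under 0.05 and 69 had values above 0. Their median was 0.24.

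Of the 11 tested regulators of mitochondrial genes, 3 fell and none rose in edgeR, where 1.31% of all genes fell and 2.97% rose. Their median log2 fold change was −0.26. Ppargc1a, a coactivator that drives mitochondrial biogenesis, had 107, 101, 80.3 and 76.1 CPM, both knockout libraries lower, and a log2 fold change of −0.41 (SE 0.0787, adjusted p 0.0254, edgeR). Nrf1, which encodes the factor whose motif is marked in the Atp5k and Ndufs6 promoters, had 94.8, 93.3, 75.1 and 68.0 CPM and a log2 fold change of −0.39 (SE 0.0827, adjusted p 0.0369, edgeR). Esrrg, an orphan nuclear receptor active at genes of oxidative metabolism, had 249.4, 227, 189 and 186 CPM and a log2 fold change of −0.34 (SE 0.0778, adjusted p 0.0473, edgeR). Of the 77 nuclear members, 74 had a positive log2 fold change. A relation between these regulators and the members was not tested, and their genomic spans were not compared.

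Markers of other cells moved with the genotypes in the excitatory sums. All 12 microglia markers had UMIs there, summing to 133, 153, 169 and 193 CPM of all UMIs, and the endothelial markers summed to 53.2, 51.9, 90.4 and 91.8. Astrocyte markers went the other way at 638, 661, 549 and 504 CPM of all UMIs, and the excitatory markers themselves stood at 1984, 1972, 1834 and 1801. Median UMIs per excitatory nucleus were 4053.5, 3588, 3942 and 3153.5. Their part in the members' differences was not tested.

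In inhibitory neurons, 2 of 75 nuclear members and none of 13 mitochondrial members rose in edgeR, where 1.02% of all genes rose. Cox6c had 92.9, 111, 132 and 154 CPM with a log2 fold change of 0.49 (SE 0.111, adjusted p 0.0359, edgeR), much as in excitatory neurons. Uqcr11, a small subunit of complex III, had 52.1, 64.5, 80.9 and 88.4 CPM with a log2 fold change of 0.54 (SE 0.128, adjusted p 0.0451, edgeR). Both genes had their groups apart. Medians were 0.33 for nuclear and 0.54 for mitochondrial members, of which 44 and 9 had an unadjusted p under 0.05, as had 1918 of all 14353 genes tested, and DESeq2 called none. Without wildtype R1 no member was called, without wildtype R2 18 nuclear and 11 mitochondrial, without knockout R1 24 and 1, and without knockout R2 4 and 11. All genes called there numbered 116, 302, 748 and 262 in that order, against 202 with all libraries.

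In astrocytes 7 of the 12 mitochondrial members tested rose (edgeR), where 0.721% of all genes were higher, and all 12 had both knockout libraries above both wildtype libraries, as 22.1% of all genes had. mt-Co2 had 143, 187, 315 and 368 CPM with a log2 fold change of 1.05 (SE 0.162, adjusted p 0.0015, edgeR). mt-Co3 had 317, 439.7, 724 and 830.3 CPM with a log2 fold change of 1.04 (SE 0.166, adjusted p 0.0023, edgeR). mt-Atp6 had 205, 249.3, 415 and 466 CPM with a log2 fold change of 0.96 (SE 0.157, adjusted p 0.0025, edgeR). Here knockout R2, not R1, was highest. The median over the 12 was 0.89, against 0.40 for the 74 nuclear members tested, of which Cox6b1 (log2 fold change 0.71, adjusted p 0.0421) and Ndufa3 (0.84, adjusted p 0.0448) were called by edgeR. Mitochondrial UMIs per nuclear-member UMI in astrocytes were 0.1797, 0.198, 0.283 and 0.266.

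A cluster of astrocytes numbered 35 held 1, 0, 193 and 329 nuclei and so came almost wholly from the knockout libraries. Its leading genes were Def8, Gm48619 and Slco1a5. Without it, 4 of 11 mitochondrial and 10 nuclear members were called by edgeR, and the ratio was 0.1797, 0.198, 0.242 and 0.208, still higher in both knockout libraries. DESeq2 called 5 mitochondrial and no nuclear members with the cluster. Without wildtype R1, 2 mitochondrial members and no nuclear one were called, and without the other libraries 7 or 8 mitochondrial members, with 4 (wildtype R2), 22 (knockout R1) and no (knockout R2) nuclear ones. All genes called in astrocytes numbered 94, 105, 450 and 121 without wildtype R1, wildtype R2, knockout R1 and knockout R2, and 92 without cluster 35, against 118 in the full fit. No filter on low counts gave none of either.

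Oligodendrocytes (6504 nuclei) had none of 73 nuclear and none of 13 mitochondrial members called by edgeR, where 0.0813% of all genes were higher. At an unadjusted p under 0.05 were 42 and 6 of them, and 1609 of all 12301 genes tested, and DESeq2 called 0 and 1. Medians were 0.37 and 0.49. With the replicate number as a block, members of both kinds were called in oligodendrocytes, as counted in the closing section. Calls under that block also arose in microglia, oligodendrocyte precursors and fibroblasts. Ndufs6, a zinc-binding subunit of complex I whose promoter is shown above, had 72.3, 86.1, 127 and 138 CPM. Its groups were clearly apart, with a log2 fold change of 0.74 (SE 0.147) and an adjusted p of 0.0590 (edgeR). Without wildtype R2, 3 nuclear and 6 mitochondrial members were called in oligodendrocytes, without knockout R1 19 nuclear and no mitochondrial, and without knockout R2 1 and 7. All genes called numbered 86, 321 and 133 in these fits, against 21 with all libraries. In microglia (2317 nuclei), 0.0777% of all genes were higher, and none of 73 nuclear and 11 mitochondrial members was called by edgeR or DESeq2, with 26 and 7 at an unadjusted p under 0.05, as had 1028 of all 9011 genes tested. mt-Atp6 came nearest with 336, 359, 663 and 536 CPM and a log2 fold change of 0.79 (SE 0.172, adjusted p 0.132, edgeR). In oligodendrocyte precursors, 0.0333% of all genes were higher and none of 72 nuclear and 10 mitochondrial members was called by either tool, with 23 and 6 at an unadjusted p under 0.05, as had 629 of all 9022 genes tested. There 3 nuclear and 3 mitochondrial members were called without wildtype R2, 1 nuclear without knockout R1 and 4 mitochondrial without knockout R2, with 20, 40 and 23 of all genes called in these fits against 3 with all libraries.

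The 4 small classes had 32 to 70 nuclear and 8 to 11 mitochondrial members tested and none called by edgeR or DESeq2. In edgeR 0% of all genes were called higher there, and the share called lower is not given. Without knockout R2, 4 mitochondrial members were called in fibroblasts, and without knockout R1, 1 in endothelial cells, where 98 and 22 of all genes were called. In fibroblasts, 10 nuclear and 7 mitochondrial members had an unadjusted p under 0.05, in mural cells 5 and 1, in committed oligodendrocyte precursors 6 and none, and in endothelial cells 1 and 4. Of all genes tested in these classes, 485 of 5766, 176 of 1787, 155 of 2609 and 100 of 1736 had one. Median log2 fold changes of the nuclear members were 0.41, 0.48, 0.31 and 0.29 in that order. Those of the mitochondrial members were 0.72, 0.26, −0.26 and 0.94. The negative one belonged to the committed oligodendrocyte precursors, where 2 of 8 mitochondrial members had a positive value, against 50.8% of all genes. In endothelial cells red blood cell markers summed to 3194, 114, 149 and 8283 CPM of all UMIs, so these libraries differed in blood content, whose part was not tested. mt-Atp6 there had 1191, 1450, 2411 and 3773 CPM. Knockout R2 was highest in both, and the order of the other libraries differed. A relation between blood content and mt-Atp6 was not tested.

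Cox6a2 had a positive change in each large class. It had 12.3, 17.7, 28.8 and 35.4 CPM in oligodendrocytes (log2 fold change 1.08, SE 0.268, adjusted p 0.101, edgeR). In inhibitory neurons it had 4.51, 7.44, 11.3 and 13.1 CPM (1.03, SE 0.287, adjusted p 0.0947, edgeR). In both, the groups were apart and the test was not passed. In astrocytes and microglia its log2 fold changes were 1.28 and 0.95, with adjusted p-values of 0.135 and 0.496 (edgeR). This gene was followed across classes after its value in excitatory neurons was seen.

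The genotype effect was compared directly between excitatory neurons and each of the other 9 classes. No member's effect differed by edgeR's interaction test at an adjusted p under 0.05 in any of the 9, where 0.697% of all genes differed for inhibitory neurons, 0.648% for oligodendrocytes, 0.554% for astrocytes and 0.00567% to 0.162% for the other 6. Between 0 and 3 nuclear and between 0 and 6 mitochondrial members had an unadjusted p under 0.05. The lowest adjusted p was 0.110, for a mitochondrial member in committed oligodendrocyte precursors. For astrocytes the mitochondrial members' median difference was 0.29, with 2 at an unadjusted p under 0.05 and a lowest adjusted p of 0.284. The larger change of mitochondrial members in astrocytes was therefore not shown to differ from that in excitatory neurons. DESeq2 was not run on this comparison. In the fit without knockout R1 some members differed in astrocytes, and no count over all genes is given for that fit.

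Between classes, both kinds of neuron had the lowest shares of nuclear-member RNA and microglia the highest, in each of the 4 libraries. Nuclear members made up 1.09%, 1.24%, 1.47% and 1.54% of UMIs in microglia and 0.942%, 1.11%, 1.26% and 1.36% in oligodendrocytes. In astrocytes they made up 0.716%, 0.860%, 0.977% and 1.11%, and in inhibitory neurons 0.413%, 0.481%, 0.540% and 0.581%. The mitochondrial shares had another order. Endothelial cells led with 0.431%, 0.513%, 0.704% and 1.07%, and inhibitory neurons (0.160%, 0.292%, 0.410% and 0.272%) were above excitatory neurons in each library.

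Each class was tested against the mean of the other classes, with library as a block, on 12360 genes. In excitatory neurons 71 of 75 nuclear and 11 of 12 mitochondrial members were lower, where 27.8% of all genes were lower, and in inhibitory neurons 65 nuclear members were lower, where 25.4% were. In oligodendrocytes 71 nuclear members were higher (28.4% of all genes), in microglia 67 (28.1%) and in astrocytes 52 (24.4%), whereas 11 mitochondrial members were lower in astrocytes (18.2% of all genes). Ndufs8, a core iron-sulfur subunit of complex I, averaged 19.1 CPM in excitatory neurons against 39.0 in the other classes (log2 fold change −1.003, SE 0.107). Uqcrfs1, the Rieske iron-sulfur subunit of complex III, averaged 50.7 CPM in oligodendrocytes against 26.4 (0.998, SE 0.135). Atp5e, a small subunit of the central stalk of the ATP synthase, averaged 176 CPM in microglia against 97.1 (0.93, SE 0.0990). Each of these changes passed edgeR's test with an adjusted p under 0.05.

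A few members went against their class. Ndufs4, an accessory subunit of complex I, was the only nuclear member higher in excitatory neurons (112 against 99.8 CPM, log2 fold change 0.19, SE 0.0805, adjusted p 0.0315, edgeR), where 36.6% of all genes were higher, and in inhibitory neurons (0.35, SE 0.0874), where 33.6% were. Ndufs1 was the only nuclear member lower in microglia (58.5 against 82.8 CPM, −0.46, SE 0.129, adjusted p 0.00252, edgeR), where 21.9% of all genes were lower. It was higher in committed oligodendrocyte precursors (0.77, SE 0.190), where 15 other nuclear members were lower (5.91% of all genes lower) and this one alone was higher (9.87% of all genes higher). In endothelial cells 10 mitochondrial members were higher (6.21% of all genes), among them mt-Nd5 (117 against 41.3 CPM, log2 fold change 1.70, SE 0.322) and mt-Co3 (1370 against 715 CPM, 0.998, SE 0.141), both passing edgeR's test. Without a single library the number of lower nuclear members in committed oligodendrocyte precursors was 11 (wildtype R1), 8 (wildtype R2), 6 (knockout R1) or 10 (knockout R2). In fibroblasts 7 mitochondrial members were higher (14.5% of all genes), but 1 without knockout R1 and 4 without wildtype R1. The ribosomal protein genes went the same way as the nuclear members: all 81 tested were lower in excitatory neurons and 81 higher in microglia. Slc17a7, a transcript of excitatory neurons, stood at 362, 454, 324 and 389 CPM of all UMIs in microglia against 235, 261, 258 and 278 in excitatory neurons themselves. Median depth was 760.5 to 881 UMIs in microglia against 3153.5 to 4053.5. The part of free neuronal RNA in these class differences was not tested.

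Isoform pairs, in which one subunit has a common form and another form used in few tissues, gave the clearest class patterns. Ndufa4l2, a paralog of the complex IV-associated subunit Ndufa4 and a known marker of pericytes, had 65.7, 23.6, 45.5 and 63.1 CPM in mural cells, against 0.298, 0.355, 0.580 and 0.346 CPM in excitatory neurons. Every mural value was above every excitatory one. The log2 fold change against the mean of the other classes was 5.81 (SE 0.687, adjusted p 3.1e-10, edgeR), where 4.80% of all genes were higher. In the other classes the gene averaged 2.82 CPM, so it may have passed the low-count filter only through classes where it was high. The p-value is therefore not taken as support for the pattern. Ndufa4 itself had 254, 200, 243 and 221 CPM in mural cells and 242, 238, 297 and 347 in oligodendrocytes. Its log2 fold change in mural cells against the mean of the other classes was 0.51 (SE 0.181). That change was far smaller than for Ndufa4l2 and did not pass (adjusted p 0.0701, edgeR). In endothelial cells Ndufa4l2 had 0, 0, 13.5 and 54.6 CPM, from the knockout libraries alone, and the call there (log2 fold change 4.11, SE 1.04) rests on few UMIs. All 4 libraries together held 91 UMIs of this gene.

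Cox6b2, the testis form of a subunit that joins complex IV monomers, led in fibroblasts with 16.5, 34.9, 37.9 and 41.1 CPM. Its log2 fold change there was 2.88 (SE 0.378), and it was also higher in astrocytes at 4.13, 10.1, 11.49 and 21.1 CPM (1.16, SE 0.317). In excitatory neurons it had 0.383, 0.798, 0.967 and 1.68 CPM and was lower (−2.77, SE 0.519). All 3 passed edgeR's test, though Cox6b2 too may have passed the low-count filter only through classes where it was high. Cox6a2 was higher in oligodendrocytes than in the other classes, with 12.6, 18.2, 29.9 and 37.2 CPM on the scale of this fit against 3.997, 5.90, 9.91 and 14.97 in excitatory neurons (log2 fold change 0.98, SE 0.206, adjusted p 4.1e-05, edgeR). Cox4i1 had 481, 578, 688 and 813 CPM in oligodendrocytes and 184, 234, 259 and 317 in excitatory neurons. Cox4i2, Cox7a1, Cox7b2, Cox8b and Cox8c, with 0 to 530 UMIs in all, were too low for this fit.

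**Figure D4:**
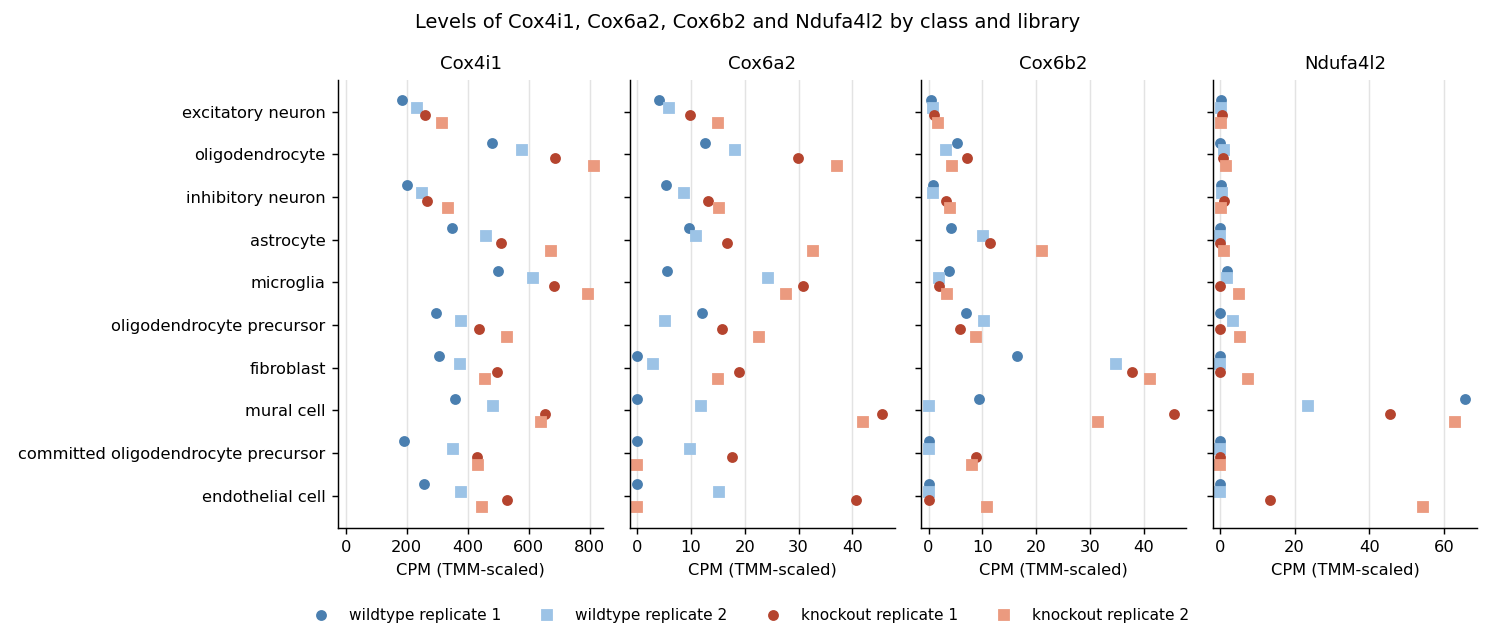
Levels (CPM, linear axis) of Cox4i1, Cox6a2, Cox6b2 and Ndufa4l2 in each class, 1 point per library. Ndufa4l2 stands at 23.6 to 65.7 CPM in mural cells and Cox6b2 at 16.5 to 41.1 CPM in fibroblasts.

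The neurons were divided into 16 subclasses, 9 named from markers and 7 known only by cluster number. The members took no part in the clustering, so they could be compared between classes and subclasses. The nuclear share was higher in both knockout libraries than in both wildtype libraries in all 16, with ratios of 1.21 to 1.44, and the mitochondrial share in 8 of 16, with ratios of 1.24 to 1.73. Knockout R1 had the highest mitochondrial share in 15 of 16 and wildtype R1 the lowest in all 16. By Pearson's r, the nuclear and mitochondrial shares were related across subclasses more closely than across classes: r over the 16 was 0.723, 0.638, 0.480 and 0.417 in the 4 libraries. By rank (Spearman) this held in all libraries but knockout R2, with 0.371 across subclasses against 0.406 across classes.

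Inhibitory subclasses carried more mitochondrial RNA per nuclear-member RNA than most excitatory ones. The ratio in Pvalb interneurons, the fast-spiking cells of cortex, was 0.354, 0.692, 0.836 and 0.479, and in Sst interneurons 0.429, 0.569, 0.871 and 0.473. In L2/3 intratelencephalic (IT) neurons it was 0.289, 0.419, 0.490 and 0.335. Within each library the Pvalb and Sst values were above the L2/3 IT value, while the spread between libraries was as large as that between subclasses. The median over the 4 inhibitory subclasses was 0.398, 0.573, 0.722 and 0.466, against 0.299, 0.431, 0.527 and 0.372 over the 12 excitatory ones. The L5 extratelencephalic (ET) neurons, the long-range output cells, had the highest excitatory value in all libraries but wildtype R1, with 0.332, 0.522, 0.721 and 0.530. Slc17a7 stood at 98.0 to 158 CPM of all UMIs in Pvalb interneurons.

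**Figure D5:**
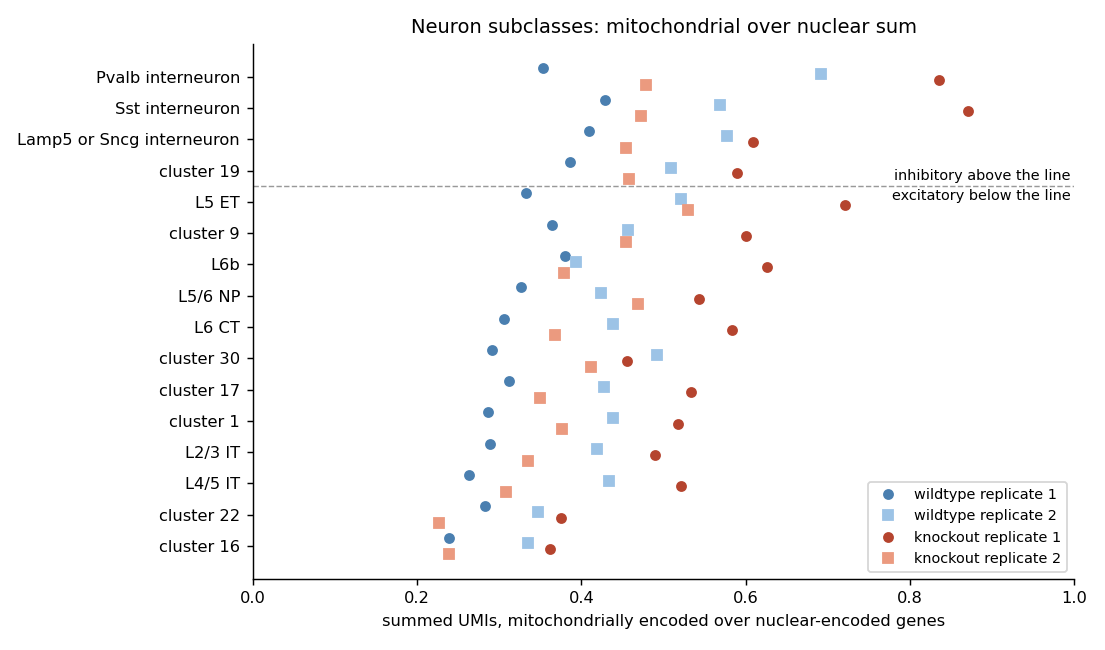
Mitochondrial UMIs per nuclear-member UMI in 16 neuron subclasses, 1 point per library, with the 4 inhibitory subclasses above the dashed line. Medians are 0.398 to 0.722 for inhibitory and 0.299 to 0.527 for excitatory subclasses, depending on the library.

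Each subclass was tested against the mean of the other subclasses on 13077 genes, of which 73 were nuclear and 12 mitochondrial members. In Pvalb interneurons 10 mitochondrial members were higher, with a median log2 fold change of 0.53, and 21 nuclear members (21.4% of all genes higher). mt-Nd3 was the farthest, with a mean of 35.6 CPM and a log2 fold change of 0.93 (SE 0.111), and mt-Co2 had 364 CPM (0.71, SE 0.0693). Cox6a2, which is also used by these interneurons, averaged 10.3 CPM there with a log2 fold change of 0.47 (SE 0.205) that did not pass (adjusted p 0.0569, edgeR). In L2/3 IT neurons all 12 mitochondrial members were lower, with a median of −0.30, and 27 nuclear members (17.5% of all genes lower). That count of 27 was 17 without knockout R1 and 2 without a filter on low counts. In the excitatory cluster 22 all 12 mitochondrial members were lower too, with a median of −0.62 (11.2% of all genes lower). All calls named here had an adjusted p under 0.05 in edgeR.

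The 4 excitatory subclasses described next had no mitochondrial member called in the direction of most nuclear calls. This was not particular to them. L6 CT neurons also had nuclear members called higher, such as Atp5mpl (log2 fold change 0.25, SE 0.0748, adjusted p 0.00496, edgeR), and no mitochondrial one called. No share over all genes is given for L6 CT neurons in this comparison. In L5 ET neurons 44 nuclear members were lower (14.9% of all genes) and only Uqcrc1 was higher (19.9%), and no mitochondrial member was called, with mt-Co1 at a log2 fold change of 0.04. In cluster 9, 36 nuclear members were lower (12.2% of all genes), or 14 without a filter on low counts, among them Cox4i1 (−0.21, SE 0.0452), and no mitochondrial member was called. In L4/5 IT neurons 32 nuclear members were higher (19.3% of all genes), among them Ndufa8 (0.43, SE 0.105), and no mitochondrial member was called. That count of 32 was 20 without wildtype R1 and 15 without knockout R2. In cluster 16, 34 nuclear members were higher (12.1% of all genes) while 6 mitochondrial members were lower (9.99% of all genes), among them mt-Co2 (−0.28, SE 0.0918). Of these 4 subclasses, L5 ET nuclei were the deepest, with a median of 5295 UMIs, and cluster 16 nuclei among the shallowest, with 2312. The part of depth was not tested.

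The genotypes were also compared within subclasses. In L6 corticothalamic (CT) neurons, 11 of 74 nuclear members and 1 of 13 mitochondrial members rose (2.23% of all genes higher), in L4/5 IT neurons 9 of 73 and none of 12 (1.21%), and in cluster 1, 8 of 73 and 2 of 12 (1.88%). In cluster 9 it was 5 of 74 and 8 of 13 (2.27%), in L5/6 near-projecting (NP) neurons 4 of 70 and 8 of 11 (1.20%), and in L6b neurons none of 72 and 3 of 11 (0.457%). L2/3 IT and Pvalb neurons had none of either, with 1.49% and 0.287% of all genes higher. Whether subclasses differ in the genotype effect was not tested, and these counts were not computed without single libraries.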

How the data were processed

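The deposited files hold, for each of the 4 libraries, whole-number UMI counts per gene and barcode. The submitters' processing notes name Cell Ranger 7.1.0 and the build mm10 for these counts, which the authors deposited without normalization. Nuclei were isolated on a sucrose gradient, per the labels' protocols. Whether introns or strand were used in counting is not given in the sources used here.

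Filters on barcodes were a minimum of 500 UMIs and of 300 genes and a mitochondrial share of no more than 5%, which 11 to 14 barcodes per library exceeded, and 623 to 745 doublets per library were removed (Scrublet in scanpy 1.11.5, expected rate 0.1). Nuclei were clustered on 2000 variable genes without the members (30 principal components, 15 neighbours, Leiden resolution 1.0, leidenalg 0.10.2, igraph 0.11.9, Python 3.11.15) and named from fixed marker lists. Counts were summed per library and class, for classes with at least 30 nuclei in every library. Genotypes were compared per class with edgeR 4.0.16 (R 4.3.3, limma 3.58.1; TMM factors, filterByExpr, quasi-likelihood test, Benjamini-Hochberg adjustment over all genes tested, threshold 0.05), without the replicate number. Classes and subclasses were each compared with the mean of the others, and the genotype effect between classes, with library as a block. Printed CPM are TMM-scaled and belong to the fit they stand beside, so a gene's CPM differs between the fit of 1 class and that of all classes. CPM of all UMIs and shares are unscaled. Sums over members get no p-value. Scripts were tested on simulated data.

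Members and gene lists were chosen with earlier results of these data known. Named members were the 13 mitochondrial ones and the called nuclear ones with the smallest p in excitatory neurons (up to 6 in each direction), up to 3 called in each other class or the 1 with the smallest p, isoform pairs, the 2 highest and 2 lowest called between classes, and up to 3 called genes of each pathway list. The members with the smallest p in oligodendrocyte precursors, fibroblasts, mural cells and committed oligodendrocyte precursors were left out of the text. Other members named were chosen after their values were seen. Alternatives were DESeq2 1.42.0, relative log expression factors, totals without mitochondrial and ribosomal genes, no low-count filter, a replicate block, each library left out, and other limits on nuclei (1% mitochondrial UMIs or none, 1000 UMIs, doublets kept).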

Additional observations from a re-analysis of the deposited data

Results flagged for a closer look

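In 3 classes the genotypes did not overlap in mitochondrial UMIs per nuclear-member UMI, and the direction was not the same. The knockout-to-wildtype ratio of this measure was 1.45 in astrocytes and 1.58 in endothelial cells, with both knockout libraries higher, but 0.685 in committed oligodendrocyte precursors, with both knockout libraries lower. The difference between these classes was not tested. Endothelial cells had 41 to 60 nuclei and committed oligodendrocyte precursors 45 to 63 nuclei per library.

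An unnamed cluster numbered 21, outside the classes compared, carried more RNA of nuclear members than any named class: 1.78%, 1.89%, 2.13% and 2.12% of UMIs in wildtype R1, wildtype R2, knockout R1 and knockout R2, a knockout-to-wildtype ratio of 1.16. Its mitochondrial UMIs per nuclear-member UMI were 0.254, 0.185, 0.234 and 0.146. Its leading genes were H2afj, Ttc9b and Mrpl41, its 2164 nuclei had a median of 972.5 UMIs, and Bc1 stood there at 2293 to 4160 CPM of all UMIs.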

How the results depend on the processing

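With 2 libraries per genotype, the counts of members called depended on the settings more than the sizes of the differences did. Every one of the 20 counts per class (nuclear and mitochondrial members in 10 classes) was within 1.5 times its main value with relative log expression factors, with totals without mitochondrial and ribosomal genes and without a mitochondrial limit. DESeq2 called 18 nuclear members in excitatory neurons, 1 mitochondrial member in oligodendrocytes and 0 nuclear members in inhibitory neurons and astrocytes. Without a low-count filter edgeR called 0 nuclear members in excitatory neurons, inhibitory neurons and astrocytes, 0 mitochondrial ones in astrocytes and 1 in oligodendrocyte precursors. A limit of 1% mitochondrial UMIs gave 1 nuclear call in oligodendrocytes. With doublets kept there were 5 nuclear calls in inhibitory neurons, 1 in astrocytes and 1 in microglia, and 1 mitochondrial call in microglia and 2 in oligodendrocyte precursors. At 1000 UMIs there was 1 nuclear call in inhibitory neurons and 1 in astrocytes, and the nuclear share in microglia differed by 0.165 percentage points. Without cluster 35, an alternative chosen after seeing the data, astrocytes had 10 nuclear and 4 mitochondrial calls. The cause was not tested for any of these.

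With a replicate block, nuclear calls were 56 in excitatory neurons, 40 in oligodendrocytes, 36 in inhibitory neurons, 32 in astrocytes, 14 in microglia and 1 in fibroblasts, and mitochondrial calls 9, 7 and 10 in the first 3 of these, 4 in microglia, 3 in oligodendrocyte precursors and 2 in fibroblasts. Calls over all genes in excitatory neurons rose from 819 to 3549. For the other classes no count over all genes is given under the block, so a general rise in calls cannot be told apart there. Nothing states that the numbers pair animals. Deviations of same-numbered libraries correlated at 0.207 over 20498 genes, and by Xist, Uty and Ddx3y the number follows sex.

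Leaving out 1 library gave ranges of 1 to 48 nuclear and 0 to 12 mitochondrial calls in excitatory neurons, 0 to 19 and 0 to 7 in oligodendrocytes, 0 to 24 and 0 to 11 in inhibitory neurons, 0 to 22 and 2 to 8 in astrocytes, and 0 to 3 and 0 to 4 in oligodendrocyte precursors. Mitochondrial calls ranged from 0 to 4 in fibroblasts and from 0 to 1 in endothelial cells. With 1 library left in a group, that library is assumed to vary like the others. The log2 fold change of mt-Nd4l in excitatory neurons was -0.081 without knockout R1 and 0.81 without knockout R2, and it alone among the named members changed sign. Members whose genotype effect differed between astrocytes and excitatory neurons numbered 0 to 4.

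Between classes, higher nuclear members in mural cells numbered 2 without a low-count filter and 2 to 4 without 1 library, against 7. Lower ones in committed oligodendrocyte precursors numbered 9 with relative log expression factors and 6 to 11 without 1 library, and higher mitochondrial ones in fibroblasts 1 to 8. The counts that follow concern each subclass against the mean of the other subclasses, not the genotypes. Main counts are not given in this report for L6 CT, L5/6 NP, L6b, cluster 19, cluster 30 or the nuclear members of cluster 22. For these the alternatives have no baseline here. The subclass alternatives were chosen after seeing the data. There the counts of higher nuclear members were 2 (relative log expression), 8 (no filter) and 1 to 6 (without 1 library) in L6 CT, 15 to 25 without 1 library in L4/5 IT, 6 without a filter and 9 to 14 without 1 library in L5/6 NP, and 16 and 18 to 22 in cluster 19. Lower nuclear members numbered 2 without a filter and 17 to 29 without 1 library in L2/3 IT, 14 without a filter in cluster 9, 4 and 6 to 12 in cluster 22, 1 to 9 without 1 library in cluster 30 and 6 to 8 in L6b. Higher mitochondrial members in L5/6 NP numbered 3 without a filter and 0 to 5 without 1 library.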
